A study of Homo sapiens with 18 samples.

Results

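The NRF2 and antioxidant genes are a set of 36 named genes: the transcription factor NRF2 (gene NFE2L2), its inhibitor KEAP1, and enzymes, pumps and iron-storage proteins that protect cells from oxidants and reactive chemicals. They were taken as a list of symbols, and all 36 were among the 29240 gene symbols present in both deposited count tables. The tables hold RNA counts of 18 libraries in 8 groups, all from MDA-MB-436, a long-established line of triple-negative human breast cancer cells. All cells were grown in DMEM with serum and antibiotics.

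In TruSeq stranded total RNA libraries, 3 libraries of a clone labelled SMARCAL1 knockout clone 1 are set against 3 libraries of a control. In PLATE-seq, a pooled assay of polyadenylated RNA from lysates, 2 libraries each of knockout clones 1, 2 and 3 are set against 2 of a control. A further 2 PLATE-seq libraries of cells given siRNA against SMARCAL1 are set against 2 given control siRNA. SMARCAL1 is an annealing helicase that acts at stalled DNA replication forks, and the study set cells with and without it side by side. Each knockout group is a single clone. How the gene was disrupted, and whether the control is itself a clone, are not given in the sources used here. The replicates are called biological in the labels. In PLATE-seq, the source name and cell line tag go up by 1 from sample to sample, with MDA-MB-437 first and MDA-MB-448 last, while every title says MDA-MB-436. All 12 were taken as MDA-MB-436.

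NRF2 is made continuously and, in unstressed cells, KEAP1 hands it to a CUL3 ubiquitin ligase for destruction. Oxidants and electrophiles modify KEAP1, NRF2 escapes, pairs with a small MAF protein and binds antioxidant response elements in the promoters and enhancers of its target genes. The control is therefore largely at the level of protein, which RNA counts do not measure, and the read-out in RNA is the level of the targets. The targets make glutathione, recycle thioredoxin, supply NADPH, detoxify quinones and haem, and pump conjugates out of the cell, and a lasting rise of the pathway is known from several kinds of tumour.

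The core of the antioxidant response element, TGACNNNGC read on either strand, was searched in RefSeq promoters of GRCh38.p14, from 250 bases before to 50 bases after each gene start. It was found in 7 of 40 promoters of 28 members (17.5%) and in 4687 of all 35116 promoters (13.3%). Counted by gene, it was in 6 of the 28 members (21.4%) and in 16.1% of all genes. The other 8 members, ABCC3 and SOD1 among them, had no promoter entry. Elements outside this stretch were not searched, so a member not shown may still have one. The 6 members with a match are shown here as windows of 29 bases, 5′ to 3′ on the strand of the gene, because this element is what NRF2 binds. Capitals mark the match. KEAP1, ME1 and TXNRD1 hold further matches that are not shown. The ME1 match also holds TGACTCA, the letters that AP-1 factors bind. A match is a run of letters and does not show binding.
ME1, chr6:83431170-83431198, minus strand: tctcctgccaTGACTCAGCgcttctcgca
TXNRD1, chr12:104215670-104215698, plus strand: acacgggctaTGACTTCGCtgttgtcacc
GCLM, chr1:93909446-93909474, minus strand: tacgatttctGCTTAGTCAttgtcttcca
IDH1, chr2:208255196-208255224, minus strand: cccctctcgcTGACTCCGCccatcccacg
PGD, chr1:10398853-10398881, plus strand: cctcgccgggGCAATGTCAtctaggtgct
KEAP1, chr19:10502807-10502835, minus strand: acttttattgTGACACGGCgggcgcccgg

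TruSeq libraries held 10257584 to 19270648 counts and PLATE-seq libraries 807861 to 3068887. A count of 3, used as the floor where a gene has none, was 0.165 to 0.278 CPM (counts scaled to a common library size) in TruSeq and 0.911 to 3.72 CPM in PLATE-seq, and covers counting error only. SMARCAL1 itself stood at 13.3, 14.7 and 13.97 CPM in clone 1 and 13.9, 14.05 and 16.1 CPM in the control in TruSeq. In PLATE-seq it had 1.78 and 3.28 CPM in clone 1, 8.32 and 3.07 CPM in clone 2, 7.11 and 13.4 CPM in clone 3, and 0 and 3.72 CPM in the control. RNA counts of the gene therefore did not check the labels of the clones. With siRNA against SMARCAL1 it had 0 and 0 counts, against 7 and 8 counts with control siRNA. The TruSeq libraries fell into 2 sets by the number of features with a count. Control replicates 1 and 2 and clone 1 replicate 1 had 36042 to 39068, while control replicate 3 and clone 1 replicates 2 and 3 had 28621 to 30653 and held more counts. TruSeq changes are therefore also given within both sets, the libraries with many features first. KRT8, KRT18 and VIM were at 514 CPM or more in every TruSeq library, ESR1 and PGR were under 1 CPM, and the leukocyte gene PTPRC was at 0.290 to 2.69 CPM. The summed level of 6 leukocyte markers, mostly CD14 and CD68, was 23.3 to 25.8 CPM in clone 1 and 30.3 to 34.3 CPM in the control. The summed level of 6 epithelial markers was 1085 to 1411 CPM in clone 1 and 1273 to 1697 CPM in the control, and that of ESR1, PGR and ERBB2 was 46.3 to 54.0 CPM in clone 1 and 38.1 to 44.2 CPM in the control. The part of any of them in the results was not tested. Over the 12 PLATE-seq libraries KRT8 was at 8.77 to 32.2 CPM, KRT18 at 72.2 to 159 CPM and VIM at 188 to 471 CPM, while ESR1, PGR and PTPRC had 0 counts. The epithelial sum was 437 to 452 CPM in clone 2 and 332 to 380 CPM in the PLATE-seq control. ERBB2 was at 4.10 to 5.20 CPM in clone 2, 5.16 to 7.11 CPM in clone 3 and 0 to 3.72 CPM in that control. The sum of 3 endothelial markers was 1.09 to 4.16 CPM in clone 1 and 0 in that control. The part of these in the results was not tested either. CDH1, an adhesion protein of epithelial cells, was at 5.53 to 29.9 CPM in PLATE-seq and at 0.0662 to 0.768 CPM in TruSeq. The assays and the cell line tags both differ between these sets of libraries.

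In clone 1, ABCC3, ME1 and UGDH rose and SOD1 fell in TruSeq. The NRF2 gene, KEAP1 and the classic targets NQO1, HMOX1, GCLC, GCLM, SRXN1, TXNRD1 and SLC7A11 did not pass the test. Of these, the groups did not overlap for GCLM and TXNRD1, which were lower, and SLC7A11, which was higher. SLC7A11 is not among the 36 members. The test was edgeR's quasi-likelihood F test with Benjamini-Hochberg adjustment over the 17371 genes tested and a threshold of 0.05 on the adjusted p. Of the 36 members, 34 had enough counts to be tested. The aldo-keto reductases AKR1C2 and AKR1C3 did not, with at most 10 and 5 counts in a library. Of the 34, 3 rose and 1 fell. Across all genes tested 6.27% passed, 3.96% higher and 2.31% lower. The median log2 change of the members was 0.08, with 21 above 0 and 13 below, and the median of all genes was -0.0044. Clone 1 and control did not overlap for 10 members, 5 above and 5 below, and for 26.3% of all genes. At an unadjusted p under 0.05 there were 8 members, 4 in each direction, against 20.4% of all genes. The calls depended on single libraries: without control replicate 2 no member passed, and 199 of all genes did instead of 1089. Without control replicate 1, clone 1 replicate 2 or clone 1 replicate 3, 3, 2 and 1 members passed, with 518, 369 and 309 of all genes. RNA measured in bulk cannot tell fewer cells carrying a transcript from less transcript per cell.

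**Figure D1:**
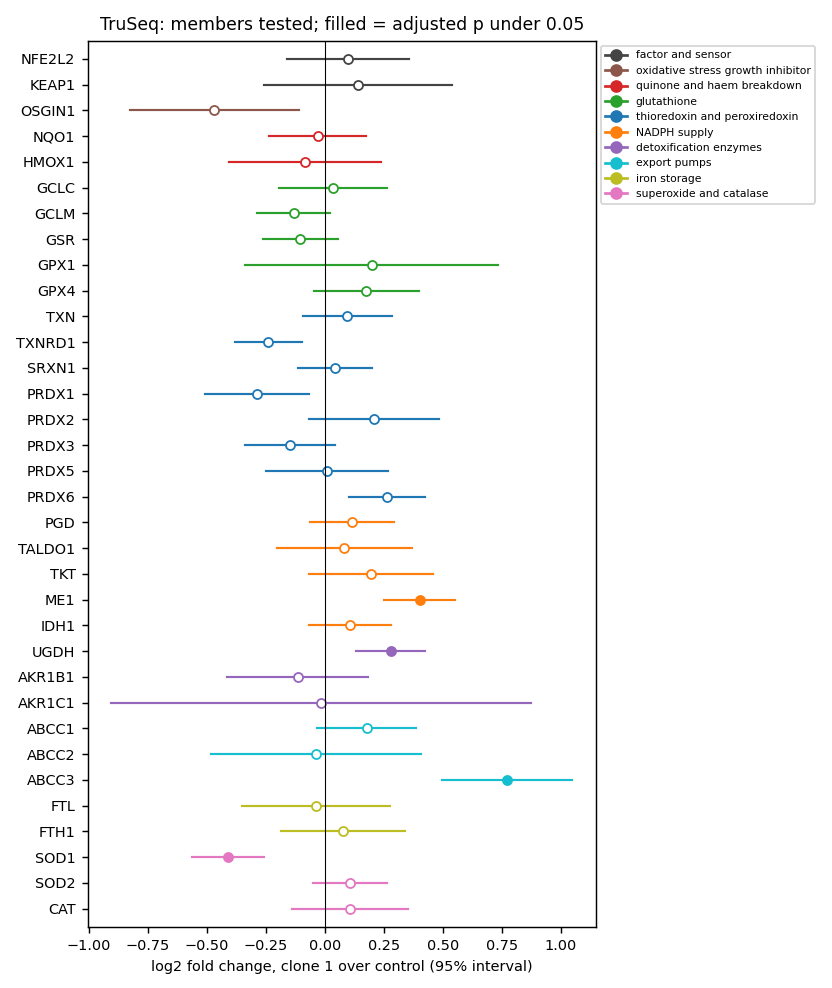
Log2 fold change of each of the 34 members tested in TruSeq, clone 1 over control, with its 95% interval, coloured by role. Filled points passed the threshold on the adjusted p. ABCC3, ME1 and UGDH lie to the right of 0 and SOD1 to the left, while most intervals include 0.

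ABCC3 encodes MRP3, a membrane pump for glutathione and glucuronide conjugates (chr17:50634777-50692252, plus strand, GENCODE release 29 on GRCh38). It stood at 26.6, 22.7 and 22.2 CPM in clone 1, against 15.9, 13.3 and 12.7 CPM in the control. All 3 clone 1 libraries were above all 3 control libraries, and the means were 23.9 ± 2.39 and 13.97 ± 1.68 CPM (SD, n = 3 each). The log2 fold change was 0.77 (SE 0.12, 95% interval 0.50 to 1.05, edgeR adjusted p = 0.00907). Within the sets of libraries with many and with few features it was 0.86 and 0.82. Without control replicate 2 the change was 0.75 and the edgeR adjusted p 0.0649. The other pumps of the set did not pass: ABCC1 had a log2 fold change of 0.18 (edgeR adjusted p = 0.323; 0.08 and 0.13 within the sets). The ABCC2 libraries of clone 1 and control overlapped, with a log2 fold change of -0.04 that was 0.11 once the 2 sets of libraries were a term in the fit.

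ME1 is the cytosolic malic enzyme, which makes NADPH from malate (chr6:83210389-83431071, minus strand). It had 90.8, 85.4 and 87.5 CPM in clone 1, against 68.9, 66.0 and 64.7 CPM in the control. The lowest clone 1 library was above the highest control library. The log2 fold change was 0.40 (SE 0.07, 95% interval 0.25 to 0.55, edgeR adjusted p = 0.0109), and 0.42 within each set of libraries. It lost the call without control replicate 2 (0.40, edgeR adjusted p = 0.0809) and without clone 1 replicate 3 (0.40, edgeR adjusted p = 0.0666). The remaining 4 NADPH enzymes, PGD, TKT, TALDO1 and IDH1, had log2 fold changes of 0.08 to 0.20 and none passed the edgeR test. Of these, TALDO1 (0.08) changed sign within the sets, to -0.02 and -0.0025, and PGD was 0.14 among the libraries with many features and -0.0063 among those with few. PGD and IDH1, like ME1, held the core element in the promoter windows shown above.

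UGDH makes UDP-glucuronic acid, the sugar donor for glucuronide conjugates (chr4:39498755-39528311, minus strand). It had 105, 97.5 and 102 CPM in clone 1, against 82.4, 82.7 and 85.5 CPM in the control, without overlap. The log2 fold change was 0.28 (SE 0.06, 95% interval 0.13 to 0.43, edgeR adjusted p = 0.0388), and 0.34 and 0.22 within the libraries with many and few features. The call was lost whichever of the 6 libraries was left out, with edgeR adjusted p from 0.0613 to 0.197 and log2 fold changes from 0.26 to 0.31. UGDH-AS1 overlaps its exons on the opposite strand, and the strand setting of the counting is not given in the sources used here, so reads of the pair cannot be told apart.

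SOD1, the cytosolic copper-zinc superoxide dismutase (chr21:31659622-31668931, plus strand), was the member that fell. It had 247, 228 and 250 CPM in clone 1, against 320, 334 and 309 CPM in the control. Every clone 1 library was below every control library, with means of 242 ± 12.3 and 321 ± 12.3 CPM (SD, n = 3 each). The log2 fold change was -0.41 (SE 0.07, 95% interval -0.56 to -0.26, edgeR adjusted p = 0.0107), and -0.41 and -0.38 within the libraries with many and few features. The call was lost without control replicate 2 (-0.38, edgeR adjusted p = 0.0876), without clone 1 replicate 2 (-0.37, edgeR adjusted p = 0.0594) and without clone 1 replicate 3 (-0.44, edgeR adjusted p = 0.0510). SOD2, the mitochondrial enzyme, had 453, 435 and 492 CPM in clone 1 and 434, 427 and 421 CPM in the control, with a log2 fold change of 0.11 (edgeR adjusted p = 0.442), and 0.06 and 0.14 within the sets. Catalase, CAT, did not pass either.

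**Figure D2:**
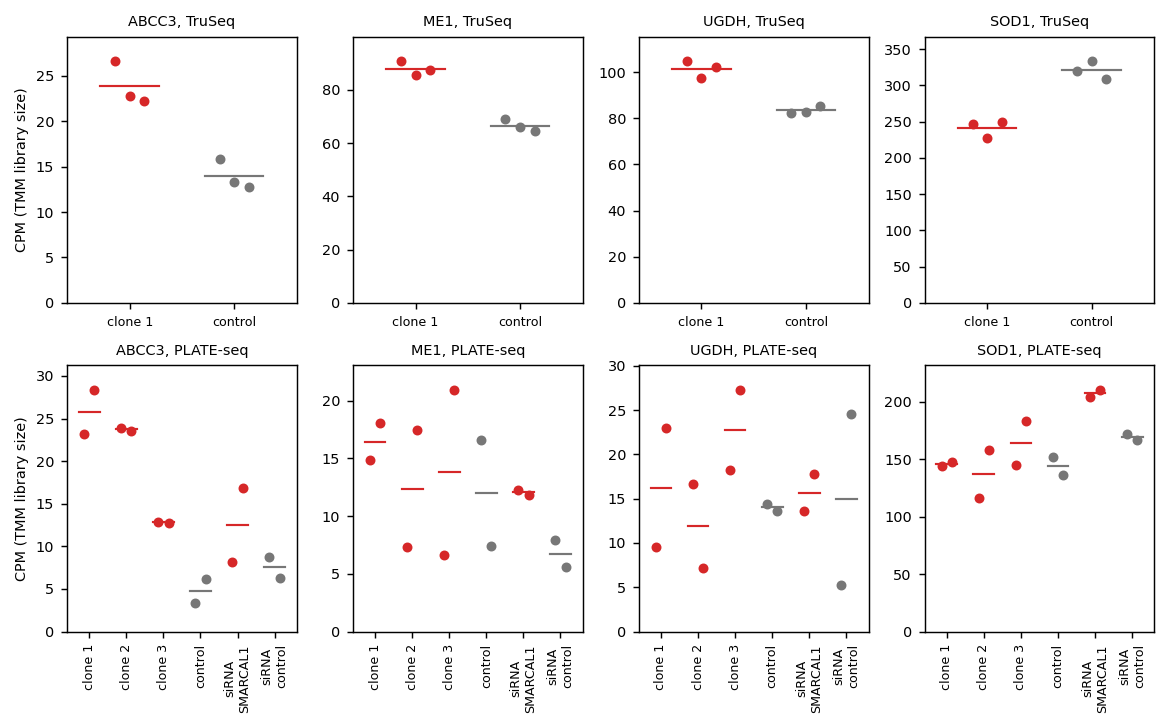
CPM of ABCC3, ME1, UGDH and SOD1 in every TruSeq library (top row) and every PLATE-seq library (bottom row). Points are libraries and bars are group means. In TruSeq the clone 1 and control libraries do not overlap for any of the 4 genes, while in PLATE-seq only ABCC3 has all 6 knockout clone libraries above both control libraries.

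The regulators differed by less than the spread between libraries. NFE2L2, which encodes NRF2, had 113, 86.7 and 104 CPM in clone 1 and 104, 95.7 and 84.2 CPM in the control. Its log2 fold change was 0.10 (95% interval -0.16 to 0.36, edgeR adjusted p = 0.692), and 0.17 and 0.18 within the libraries with many and few features. With the sets as a term in the fit NFE2L2 passed (0.18, edgeR adjusted p = 0.0422), as did 21.8% of all genes. KEAP1 had 49.97, 76.8 and 73.3 CPM in clone 1 and 53.6, 54.7 and 73.1 CPM in the control. Its level was 49.97 to 54.7 CPM in the libraries with many features and 73.1 to 76.8 CPM in those with few, whatever the group. The log2 fold change of 0.14 (95% interval -0.26 to 0.54, edgeR adjusted p = 0.719) was -0.12 within the libraries with many features and 0.04 within those with few. NFE2L2 exons overlap AC019080.1 on the same strand and AGPS on the opposite strand, and those of NQO1 and PRDX1 overlap AC092115.2 and MMACHC on the opposite strand, so these counts carry the same uncertainty. So do those of OSGIN1, GCLC and SOD2, which share exon bases with other entries on the same strand. PRDX2 and IDH1 share some with genes on the opposite strand.

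The quinone reductase NQO1 had 272, 288 and 310 CPM in clone 1 and 267, 290 and 330 CPM in the control. Its log2 fold change was -0.03 (95% interval -0.24 to 0.18, edgeR adjusted p = 0.900), and -0.05 and -0.15 within the sets. Haem oxygenase 1, HMOX1, which opens the haem ring, had 12.1, 14.4 and 12.6 CPM in clone 1 and 12.7, 12.3 and 16.3 CPM in the control, a log2 fold change of -0.08 (95% interval -0.41 to 0.24, edgeR adjusted p = 0.804), and -0.05 and -0.28 within the sets. The groups overlapped for both genes. Leaving out single libraries changed the sign of both, to 0.06 and 0.02 for NQO1 without control replicate 3 and without clone 1 replicate 1, and to 0.07 for HMOX1 without control replicate 3. OSGIN1, a growth inhibitor induced by oxidative stress, had 6.12, 8.41 and 6.69 CPM in clone 1 and 9.47, 9.04 and 10.95 CPM in the control. These did not overlap, but the log2 fold change of -0.47 (SE 0.16) did not pass (edgeR adjusted p = 0.132). Within the sets it was -0.60 and -0.53.

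None of the 5 glutathione genes passed by edgeR. GCLC, the catalytic subunit of the enzyme that starts glutathione synthesis, had 25.5, 24.3 and 29.8 CPM in clone 1 and 27.1, 26.2 and 24.6 CPM in the control. Its log2 fold change was 0.03 (95% interval -0.20 to 0.27, edgeR adjusted p = 0.894), and -0.07 and 0.13 within the sets. It turned to -0.0018 without control replicate 3 and to -0.06 without clone 1 replicate 3. GCLM, the modifier subunit of the same enzyme, had 72.3, 73.1 and 70.6 CPM in clone 1, against 80.3, 74.8 and 81.5 CPM in the control. The GCLM groups did not overlap, and the log2 fold change was -0.13 (95% interval -0.29 to 0.02, edgeR adjusted p = 0.312), and -0.11 and -0.19 within the sets. Glutathione reductase (GSR) and the peroxidase GPX4 had log2 fold changes of -0.10 and 0.18. The peroxidase GPX1 stood at 0.20 (SE 0.24, edgeR adjusted p = 0.705), at -0.11 and 0.01 within the sets, and at -0.04 with the sets as a term in the fit.

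None of the 8 genes of the thioredoxin and peroxiredoxin group passed by edgeR, and 3 of them had groups that did not overlap, against 26.3% of all genes. DESeq2, which called at least 1060 of all genes, called TXNRD1 and PRDX6 (DESeq2 adjusted p = 0.00972 and 0.0480). TXNRD1, the cytosolic thioredoxin reductase, had 459, 465 and 480 CPM in clone 1, against 542, 551 and 565 CPM in the control. Its log2 fold change was -0.24 (SE 0.06, edgeR adjusted p = 0.0587), and -0.26 within each set of libraries. PRDX1, a cytosolic peroxiredoxin, had 534, 630 and 614 CPM in clone 1, against 650, 726 and 793 CPM in the control, a log2 fold change of -0.29 (SE 0.10, edgeR adjusted p = 0.131), and -0.37 and -0.35 within the sets. PRDX6, a peroxiredoxin that uses glutathione, went the other way, with 192, 199 and 198 CPM in clone 1, against 152, 162 and 176 CPM in the control. Its log2 fold change was 0.26 (SE 0.07, edgeR adjusted p = 0.0639), and 0.28 and 0.17 within the sets. It passed without control replicate 3 (0.32, edgeR adjusted p = 0.0421). SRXN1, sulfiredoxin, which repairs over-oxidised peroxiredoxins, had 137, 145 and 134 CPM in clone 1 and 131, 129 and 143 CPM in the control, a log2 fold change of 0.04 (95% interval -0.11 to 0.20, edgeR adjusted p = 0.791), and 0.06 and -0.04 within the sets. AL121758.1 overlaps SRXN1 exons on the same strand, so its counts are uncertain. Thioredoxin (TXN), PRDX2, PRDX3 and PRDX5 had overlapping groups and log2 fold changes of -0.15 to 0.21.

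The ferritin chains were the members with the highest level per length. FTL, the light chain, had 2582 CPM per kilobase of merged exon in clone 1 and 2649 in the control, and FTH1, the heavy chain, 539 in clone 1 and 511 in the control. AKR1C1, AKR1C2 and AKR1C3, closely related neighbours on chromosome 10, were lowest, at 0.0160 to 0.143 CPM per kilobase in clone 1 and 0.0732 to 0.145 in the control. FTL had a log2 fold change of -0.04 (95% interval -0.35 to 0.28, edgeR adjusted p = 0.919) and FTH1 of 0.08 (95% interval -0.18 to 0.34, edgeR adjusted p = 0.773). Within the sets FTL changed by -0.19 and -0.13, and FTH1 by -0.11 and 0.04. FTL changed sign without control replicate 3 or clone 1 replicate 1, to 0.08 in either case. Symbols of FTH1 pseudogenes held 7.15% of the counts of gene and pseudogenes together, and those of FTL 2.28%. Both genes are therefore uncertain, and these shares do not bound by how much. BEST1 overlaps 1267 of the 2030 exon bases of FTH1 on the opposite strand, so reads of that pair cannot be told apart either. All 36 members together took 0.826% to 0.924% of the counts of a TruSeq library.

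With the 2 sets of libraries as a term in the fit, more members passed, and so did more of all genes. The edgeR test then called 11 of 34 members, against 21.8% of all genes. ABCC3, ME1, UGDH, PRDX6 (log2 fold change 0.23, edgeR adjusted p = 0.00128) and NFE2L2 (0.18, edgeR adjusted p = 0.0422) were higher. SOD1, TXNRD1 (-0.25, edgeR adjusted p = 0.000391), PRDX1 (-0.36), PRDX3 (-0.21), OSGIN1 (-0.56) and AKR1B1 (-0.23) were lower. Each set alone has a lone library in 1 group, so the changes within the sets are given as values. Of the 34 members, 27 had the same sign on both sides. The 7 with opposite signs were CAT, FTH1, GCLC, GPX1, KEAP1, PGD and SRXN1.

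**Figure D3:**
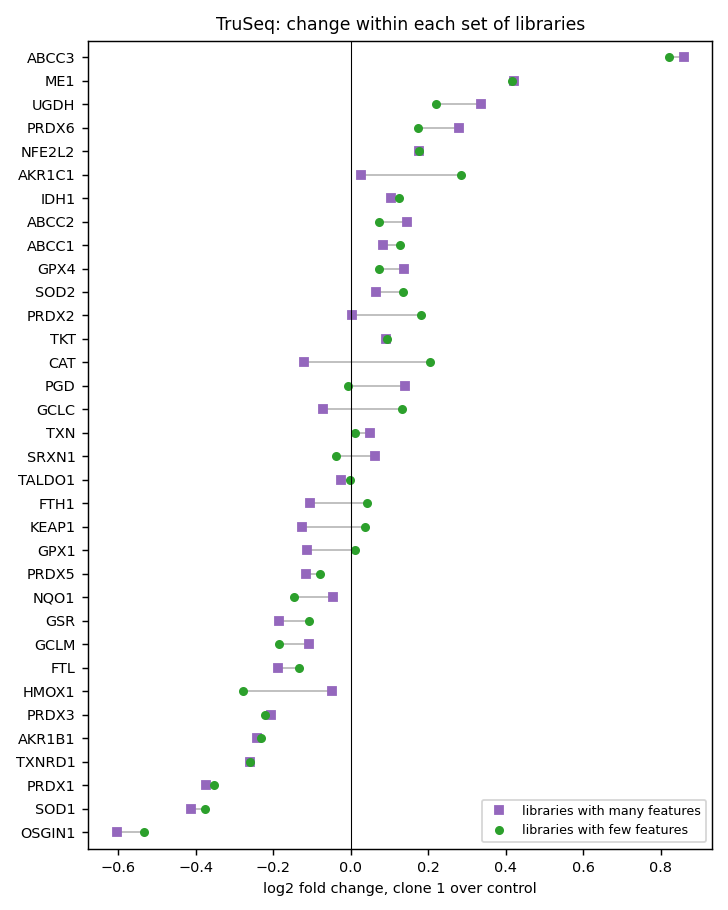
Log2 fold change of each member in TruSeq, clone 1 over control, within the 3 libraries with many features (squares) and the 3 with few features (circles), joined by a grey line. The median distance between the 2 values of a member is 0.07, and the 4 called members keep their direction on both sides.

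A further 56 genes of the same pathway were followed as a list: regulators of NRF2, cystine and glutathione genes, thioredoxin genes, NADPH enzymes and detoxification enzymes. Of these, 50 were tested in TruSeq, 1 rose and 2 fell, against 6.27% of all genes, with a median log2 change of 0.02. CUL3, the scaffold of the ligase that KEAP1 uses against NRF2, had 142, 130 and 127 CPM in clone 1, against 114, 105 and 94.1 CPM in the control (log2 fold change 0.35, SE 0.09, edgeR adjusted p = 0.0494). GGT1, which breaks down glutathione outside the cell, had 6.77, 6.50 and 4.77 CPM in clone 1, against 11.01, 10.6 and 12.4 CPM in the control (-0.92, SE 0.16, edgeR adjusted p = 0.0137). HTATIP2, an oxidoreductase, had 31.4, 29.2 and 31.3 CPM in clone 1, against 36.7, 39.1 and 42.4 CPM in the control (-0.36, SE 0.08, edgeR adjusted p = 0.0409). The groups did not overlap for any of the 3. GGT1 has close paralogs and shares exonic bases with SNRPD3 on the same strand, so its counts are uncertain. Exons of CUL3 and SLC7A11 overlap AC073052.2 and SLC7A11-AS1 on the opposite strand, so their reads cannot be told apart either. CUL3 and HTATIP2 lost the call whichever library was left out, with edgeR adjusted p from 0.0525 to 0.177 and from 0.0613 to 0.183. GGT1 lost it without control replicate 2 (edgeR adjusted p = 0.0672) and without clone 1 replicate 3 (edgeR adjusted p = 0.0543). Within the libraries with many and few features CUL3 changed by 0.36 and 0.45, GGT1 by -0.68 and -1.13, and HTATIP2 by -0.28 and -0.49 on the log2 scale. SLC7A11, the cystine carrier and a classic NRF2 target, had 90.6, 95.7 and 87.2 CPM in clone 1, against 78.5, 75.6 and 78.3 CPM in the control. Its groups did not overlap, and the log2 fold change of 0.24 (SE 0.07) did not pass (edgeR adjusted p = 0.0804). It was 0.23 and 0.22 within the sets.

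In PLATE-seq no member passed the edgeR test in any of the 3 clones or with siRNA. Of the 36 members, 30 were tested there. SRXN1 had 0 counts in all 12 libraries, and AKR1C1, AKR1C2, AKR1C3, ABCC1 and ABCC2 had 6, 3, 3, 57 and 29 counts over the 12 libraries together. In TruSeq SRXN1 stood at 129 to 145 CPM, so the 0 does not show that its transcript was absent. AL121758.1 overlaps 2292 of the 2698 exon bases of SRXN1 on the same strand. The part of this overlap in the 0 counts was not tested. The median standard error of a member's log2 change was 0.39 in clone 1, against 0.10 for clone 1 in TruSeq. The edgeR test called 0 members in clone 1, where 0% of all 8595 genes passed, 0 in clone 2, where 0.0349% passed, and 0 in clone 3, where 0.663% passed. DESeq2 called 0 members in each as well. At an unadjusted p under 0.05 there were 3, 2 and 4 members in clones 1, 2 and 3, all higher, against 8.19%, 9.66% and 11.9% of all genes. The groups did not overlap for 15, 12 and 10 of the 30 members, against 39.2%, 38.3% and 42% of all genes. The median log2 change of the members was 0.11, 0.07 and 0.19 in the 3 clones, beside 0.0067, 0.0082 and 0.02 for all genes. The 3 clones were compared with the same 2 control libraries, so their values are not independent of one another.

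ABCC3 was the member with the lowest p in clones 1 and 2. It had 23.2 and 28.4 CPM in clone 1, 23.9 and 23.6 CPM in clone 2, and 12.9 and 12.8 CPM in clone 3, against 3.32 and 6.20 CPM in the control. All 6 clone libraries were above both control libraries, which held 3 and 5 counts of the gene. The same pattern was seen for FTH1, PGD, PRDX5 and GSR, and its share over all genes was not counted. The log2 fold changes were 2.43 (SE 0.67, edgeR adjusted p = 0.273), 2.31 (SE 0.69, edgeR adjusted p = 0.233) and 1.43 (SE 0.68, edgeR adjusted p = 0.409). For the mean of the 3 clones against the control, a contrast added after the data were seen, it was 2.06 (edgeR adjusted p = 0.179). The count filter was run over all PLATE-seq libraries together. ABCC3 was low in both control libraries, so the size of these changes is uncertain.

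FTH1, PRDX6 and PGD, besides ABCC3, had a log2 change above 0 in all 3 clones and an unadjusted p under 0.05 in at least 1 of them. FTH1 had 356 and 264 CPM in clone 1, 403 and 259 in clone 2, and 279 and 489 in clone 3, against 184 and 229 CPM in the control. The log2 fold changes were 0.59, 0.68 and 0.90 (edgeR adjusted p = 0.677, 0.504 and 0.241). PRDX6 had 338 and 614 CPM in clone 1, 278 and 559 in clone 2, and 509 and 406 in clone 3, against 278 and 309 CPM in the control, with log2 fold changes of 0.70, 0.51 and 0.64 (edgeR adjusted p = 0.588, 0.654 and 0.440). Clone 2 overlapped the control for PRDX6, and turned to -0.09 without its replicate 2. PGD, an NADPH enzyme of the pentose phosphate pathway, had 171 and 169 CPM in clone 1, 160 and 157 in clone 2, and 132 and 128 in clone 3, against 113 and 114 CPM in the control. Its replicates lay close together, and the log2 fold changes were 0.58, 0.48 and 0.19 (edgeR adjusted p = 0.603, 0.625 and 0.849).

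ME1, UGDH and SOD1 could not be told from the control in PLATE-seq. ME1 had 14.9 and 18.0 CPM in clone 1, 7.28 and 17.4 in clone 2, and 6.67 and 21.0 in clone 3, against 16.6 and 7.44 CPM in the control. UGDH had 9.51 and 22.9 CPM in clone 1, 16.6 and 7.17 in clone 2, and 18.2 and 27.3 in clone 3, against 14.4 and 13.6 CPM in the control. SOD1 had 144 and 148 CPM in clone 1, 116 and 158 in clone 2, and 145 and 183 in clone 3, against 152 and 136 CPM in the control. For clone 1 the SOD1 log2 fold change was 0.02 (95% interval -0.56 to 0.59, edgeR adjusted p = 0.995), an interval that includes the TruSeq value of -0.41. The clone 1 values of ME1 (0.44, 95% interval -1.005 to 1.88) and UGDH (0.21, 95% interval -1.18 to 1.61) likewise had intervals that include the TruSeq values. ME1 turned to -0.00028 without control replicate 2, and UGDH to -0.55 without clone 1 replicate 2.

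**Figure D4:**
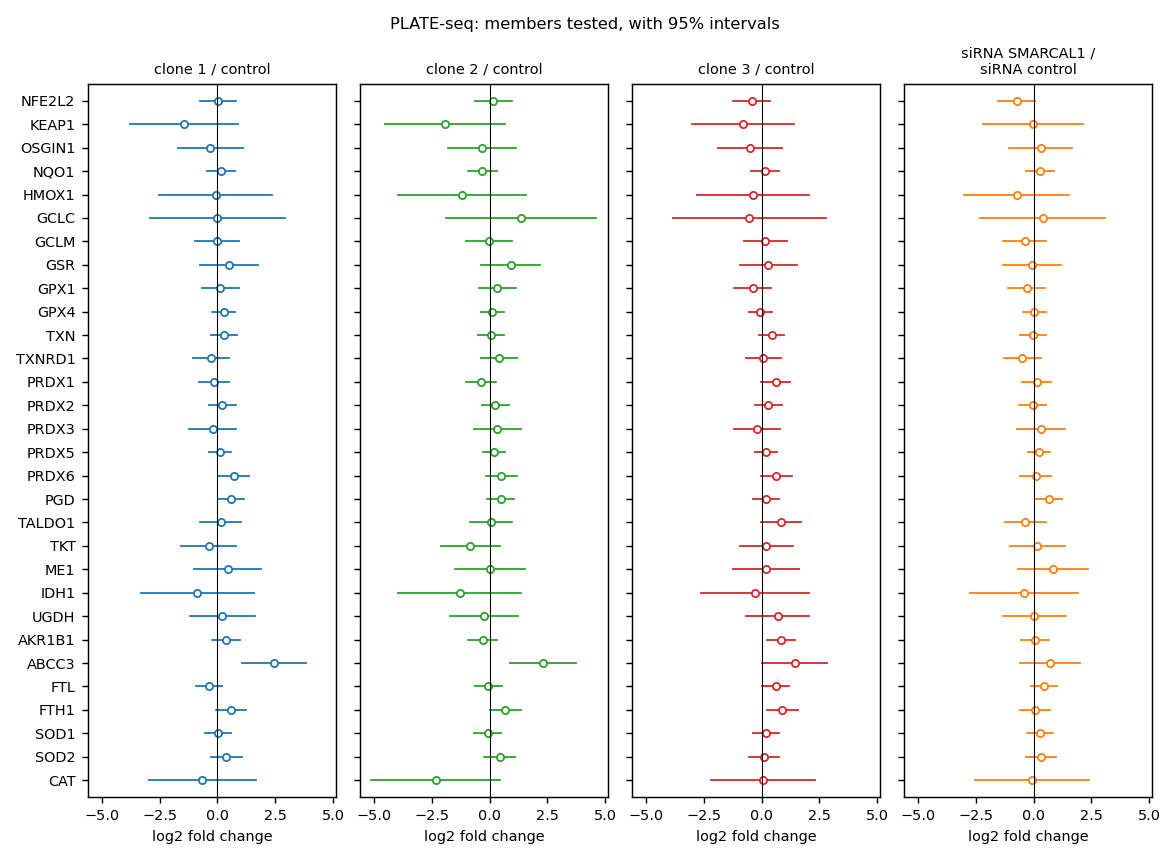
Log2 fold change with 95% interval of the 30 members tested in PLATE-seq, 1 panel for each clone against the control and 1 for siRNA SMARCAL1 against siRNA control. All points are open because none passed the threshold, and ABCC3 is the farthest to the right in clones 1, 2 and 3.

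NFE2L2 had 61.2 and 66.6 CPM in clone 1, 75.9 and 65.6 in clone 2, and 64.4 and 29.8 in clone 3, against 77.4 and 48.4 CPM in the control. KEAP1 had 0.594 and 6.55 CPM in clone 1, 0 and 5.12 in clone 2, and 1.78 and 9.41 in clone 3, against 7.74 and 12.4 CPM in the control, from at most 31 counts in any of these libraries. Clones 1 and 2 were below the control for KEAP1, and clone 3 overlapped it. Groups did not overlap for 39.2%, 38.3% and 42% of all genes in clones 1, 2 and 3. None of the genes in this paragraph passed the edgeR test. NQO1 had 259 and 246 CPM in clone 1, 168 and 199 in clone 2, and 199 and 302 in clone 3, against 196 and 262 CPM in the control. The NQO1 values of each clone overlapped those of the control. TXNRD1 had 36.8 and 48.6 CPM in clone 1, 67.6 and 71.7 in clone 2, and 63.1 and 48.3 in clone 3, against 53.1 and 52.1 CPM in the control, so clone 1 was below and clone 2 above. GCLM had 27.9 and 29.5 CPM in clone 1, 16.6 and 41.0 in clone 2, and 25.8 and 39.2 in clone 3, against 35.4 and 22.3 CPM in the control. SLC7A11 had 37.4 and 31.1 CPM in clone 1, 40.6 and 44.1 in clone 2, and 24.0 and 24.3 in clone 3, against 15.5 and 33.5 CPM in the control, so clone 2 was above and clones 1 and 3 overlapped. HMOX1 had 4.75 and 4.37 CPM in clone 1, 1.04 and 3.07 in clone 2, and 5.33 and 2.13 in clone 3, against 1.11 and 8.68 CPM in the control. GCLC had 2.97 and 0.546 CPM in clone 1, 2.08 and 7.17 in clone 2, and 0.444 and 1.82 in clone 3, against 2.21 and 1.24 CPM in the control. Every clone overlapped the control for both genes, which had at most 12 counts in any of these libraries, too few to show a difference at this depth.

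Clone 1 was measured in both assays, in separate libraries. Over the 30 members tested in both, the log2 changes had a Pearson correlation of 0.51 and a Spearman correlation of 0.37, and 21 had the same sign. Without ABCC3 the Pearson correlation over the remaining 29 was 0.19 and the Spearman correlation 0.30, and 20 had the same sign. This is a description across genes, which are not independent replicates, and whether the cultures were shared is not given in the sources used here. ABCC3 was farthest from 0 in both assays, at 0.77 in TruSeq and 2.43 in PLATE-seq, and PRDX6 and ME1 were also above 0 in both. SOD1 stood at -0.41 in TruSeq and 0.02 in PLATE-seq.

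**Figure D5:**
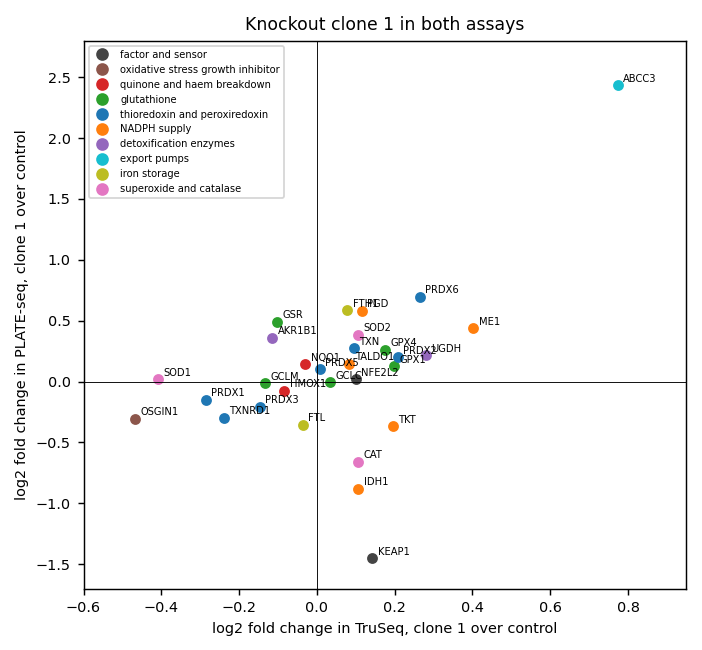
Log2 fold change of clone 1 over control in TruSeq (x axis) and in PLATE-seq (y axis) for the 30 members tested in both, 1 point a gene, coloured by role. ABCC3 lies alone at the upper right, and the other members lie between -1.45 and 0.70 on the PLATE-seq axis.

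The members did not differ among the 3 clones past the threshold in a test of the differences themselves, with 0 of 30 called, against 0.71% of all genes. DESeq2 also called 0 members, and 3 had an unadjusted p under 0.05, against 11.3% of all genes. These were AKR1B1 (edgeR adjusted p = 0.145), FTL (0.181) and PRDX1 (0.209). AKR1B1, an aldose reductase, had 155 and 175 CPM in clone 1, 83.2 and 127 in clone 2, and 182 and 278 in clone 3, with 137 and 120 CPM in the control. FTL had 3256 and 1380 CPM in clone 1, 3303 and 2448 in clone 2, and 4098 and 4921 in clone 3, with 2744 and 3188 CPM in the control. PRDX1 had 168 and 180 CPM in clone 1, 148 and 152 in clone 2, and 203 and 383 in clone 3, with 213 and 172 CPM in the control. For each gene both clone 3 libraries were above all libraries of clones 1 and 2, and the second clone 3 library was the higher of the pair. AKR1B1 and PRDX1 passed when replicate 1 of clone 3 was left out (edgeR adjusted p = 0.0482 and 0.0319), and FTL when replicate 1 of clone 1 was (edgeR adjusted p = 0.00678). ABCC3 did not pass (edgeR adjusted p = 0.657).

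With siRNA against SMARCAL1 the edgeR test called 0 members, where 0% of all genes passed, and DESeq2 called 0. PGD alone had an unadjusted p under 0.05, against 6.33% of all genes. It had 207 and 180 CPM with siRNA SMARCAL1, against 103 and 142 CPM with siRNA control, without overlap, and a log2 fold change of 0.66 (SE 0.28, edgeR adjusted p = 0.686). NFE2L2 had 42.2 and 44.5 CPM with siRNA SMARCAL1, against 79.8 and 63.2 CPM with siRNA control. These did not overlap either, and the log2 fold change was -0.72 (95% interval -1.52 to 0.08, edgeR adjusted p = 0.824). KEAP1 had 8.85 and 13.8 CPM with siRNA SMARCAL1 and 16.7 and 6.32 CPM with siRNA control. In all, the groups did not overlap for 11 of 30 members, against 37.4% of all genes, and the median log2 change of the members was 0.06, against -0.02 for all genes. The fibroblast gene PDGFRA, the only one of 4 fibroblast markers with a count, was at 0 to 1.36 CPM with siRNA SMARCAL1 and 7.72 to 44.7 CPM with siRNA control, and its part in these values was not tested. Nor was that of 3 other marker lists whose groups did not overlap. The summed level of 3 mesenchymal markers was 211 to 218 CPM with siRNA SMARCAL1 and 244 to 287 CPM with siRNA control, and that of 6 leukocyte markers 2.97 to 4.76 CPM with siRNA SMARCAL1 and 0.877 to 1.40 CPM with siRNA control. ERBB2, the only one of ESR1, PGR and ERBB2 with a count, was at 1.36 to 2.97 CPM with siRNA SMARCAL1 and 6.14 to 9.12 CPM with siRNA control.

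The members that moved in clone 1 in TruSeq did not pass with siRNA. ABCC3 had 8.17 and 16.8 CPM with siRNA SMARCAL1 and 8.77 and 6.32 CPM with siRNA control, which overlapped, with a log2 fold change of 0.70 (95% interval -0.60 to 2.01, edgeR adjusted p = 0.921). ME1 had 12.2 and 11.9 CPM with siRNA SMARCAL1, against 7.89 and 5.62 CPM with siRNA control, a log2 fold change of 0.84 (95% interval -0.68 to 2.36, edgeR adjusted p = 0.920). UGDH had 13.6 and 17.8 CPM with siRNA SMARCAL1 and 5.26 and 24.6 CPM with siRNA control, and its log2 fold change of 0.04 turned to -0.65 without siRNA control replicate 1 and to -0.16 without siRNA SMARCAL1 replicate 2. SOD1 had 204 and 211 CPM with siRNA SMARCAL1, against 172 and 166 CPM with siRNA control, a log2 fold change of 0.29 (95% interval -0.27 to 0.86, edgeR adjusted p = 0.924). The ME1 and SOD1 groups did not overlap. Whether siRNA and the clones differ from each other was not tested for these genes. NQO1 had 338 and 271 CPM with siRNA SMARCAL1 and 190 and 319 CPM with siRNA control, and the 2 overlapped. TXNRD1 had 24.5 and 33.6 CPM with siRNA SMARCAL1 and 49.97 and 31.6 CPM with siRNA control, which overlapped. GCLM had 32.7 and 47.5 CPM with siRNA SMARCAL1, against 51.7 and 52.6 CPM with siRNA control, without overlap. SLC7A11 had 40.8 and 42.5 CPM with siRNA SMARCAL1, against 20.2 and 22.5 CPM with siRNA control, without overlap. GCLM and SLC7A11 did not pass the edgeR test, and groups did not overlap for 37.4% of all genes with siRNA. HMOX1 had 5.44 and 5.93 CPM with siRNA SMARCAL1, against 7.01 and 11.9 CPM with siRNA control. Its groups did not overlap, and its log2 fold change of -0.74 (SE 1.11, edgeR adjusted p = 0.956) was the lowest of the 30 members, from 6 to 17 counts a library. GCLC had 5.44 and 8.90 CPM with siRNA SMARCAL1 and 9.64 and 1.40 CPM with siRNA control, which overlapped.

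Of the 56 further pathway genes, 45 were tested in PLATE-seq. None passed in clones 1, 2 and 3 or with siRNA by edgeR or by DESeq2, and 3, 5, 8 and 4 had an unadjusted p under 0.05, against 8.19%, 9.66%, 11.9% and 6.33% of all genes. In the test of differences among the clones 1 of the 45 passed, against 0.71% of all genes. This was PRDX4, a peroxiredoxin of the endoplasmic reticulum (edgeR adjusted p = 0.00641), in which clone 3 stood above clones 1 and 2. Without clone 3 replicate 2 its edgeR adjusted p was 0.385.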

How the data were processed

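The values were raw counts of reads per gene symbol, deposited by the authors in 1 table per assay and made with STAR and HTSeq on hg38, per the submitters' processing notes. Versions, annotation and strand setting are not given in the sources used here, so overlapping and antisense genes cannot be told apart. RNA was total RNA (TruSeq) or polyadenylated RNA (PLATE-seq), per the labels' protocols. The 92 spike-ins of PLATE-seq (at most 0.0534% of a library) were left out, which leaves 57120 and 44267 symbols.

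Each assay was fitted alone with edgeR 4.0.16 in R 4.3.3: filterByExpr (17371 and 8595 genes), TMM, group as the only term, quasi-likelihood F test, two-sided, Benjamini-Hochberg adjustment over all genes tested, threshold 0.05. Residual degrees of freedom were 4 and 6. Standard errors are the log2 fold change over the square root of F, and intervals use the t distribution of the fit. CPM were counts over TMM-scaled library sizes. Levels were compared between genes only per kilobase of merged GENCODE 29 exons, matched by symbol. Promoters came from RefSeq (GRCh38.p14) and matched 28 members. HMOX1, GSR, PRDX1, PRDX6, ABCC1, ABCC3, FTH1 and SOD1 had no entry. The steps were tested on simulated data with larger changes than those of the called members. Recovery of changes as small as theirs was not tested.

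The rule for named genes accounted for every member, gave those past the threshold, the regulators and the classic targets in every library, and named the further pathway genes past the threshold. The members and gene lists were chosen with earlier results of these data known. Alternatives were RLE size factors, DESeq2 1.42.0, no filter, a replicate block, leaving out each library, and, in TruSeq, a term for the number of detected features and fits within its 2 sets.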

Additional observations from a re-analysis of the deposited data

Results flagged for a closer look

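PRDX4, a peroxiredoxin of the endoplasmic reticulum and one of the 56 further pathway genes, differed among the knockout clones in PLATE-seq by a test of the differences themselves (edgeR adjusted p = 0.00641). It had 150 and 161 CPM in clone 1, 128 and 112 CPM in clone 2, and 259 and 468 CPM in clone 3, with 199 and 223 CPM in the control. Clone 3 was above and clones 1 and 2 were below both control libraries. In TruSeq clone 1 had 100, 105 and 109 CPM and the control 98.8, 100 and 121 CPM, which overlapped.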

How the results depend on the processing

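In TruSeq 4 members passed. The count was 3 to 6 with RLE size factors, DESeq2, no filter or the libraries with many features alone, 8 with the replicate block (PRDX1, PRDX6, TXNRD1 and TKT besides the 4), 11 with a term for detected features, 9 within the libraries with few features, and 0 to 4 when a library was left out. Of all genes, 2387, 3793 and 2517 passed under the block, the term and the few-feature libraries, and 199 to 1145 with a library left out. Fits within 1 set have a lone library in 1 group, assumed to vary like the others. Leaving these fits aside, ABCC3 was called in 11 of 12 settings, ME1 in 10, SOD1 in 9 and UGDH in 5, the one of the 4 that also lost it without the filter (0.30, edgeR adjusted p = 0.136). Deviations of same-numbered TruSeq libraries had correlations of 0.58, -0.27 and 0.38. Replicates 1 and 3 were in the same set by detected features in clone 1 and control, and replicate 2 was not. These correlations therefore cannot decide whether the numbers pair libraries, and the main fit did not pair them. In PLATE-seq the block called 0 members in each contrast, 53 genes in clone 3 and 64 among the clones.

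DESeq2 called 14, 31 and 93 genes in clones 1, 2 and 3, 1 with siRNA and 148 among the clones. Without the filter edgeR called 36, 61, 156, 22 and 230, and among the clones 2 members, FTL and AKR1B1. With a library left out the counts were 0 to 3, 3 to 12, 7 to 131, 0 to 2 and 17 to 141, with 0 to 2 members among the clones and 0 in the other contrasts.

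Values that changed sign had failed the test in each case, and the cause was not tested. With the term for detected features KEAP1 was -0.027, FTH1 -0.026, GPX1 -0.038, PRDX5 -0.091, TALDO1 -0.0072, AKR1C1 0.16 and ABCC2 0.11. Within the libraries with many features KEAP1 was -0.12, GCLC -0.072, FTH1 -0.11, GPX1 -0.11, PRDX5 -0.12, TALDO1 -0.025, CAT -0.12, AKR1C1 0.026 and ABCC2 0.14. Within those with few SRXN1 was -0.038, PRDX5 -0.079, PGD -0.0063, TALDO1 -0.0025, AKR1C1 0.28 and ABCC2 0.072. Without the filter AKR1C1 was 0.0049. In PLATE-seq SOD1 in clone 1 was -0.0033 with RLE and -0.0035 with DESeq2, and ME1 in clone 2 was -0.054 with the block. For the mean of the 3 clones against the control, a different contrast, UGDH was 0.23 and SOD1 0.045, where clone 2 alone was below 0. Leaving out libraries gave NQO1 -0.10 to 0.060, HMOX1 -0.16 to 0.071, GCLC -0.059 to 0.097, AKR1B1 -0.22 to 0.013, FTL -0.15 to 0.082, PRDX5 -0.072 to 0.11, TALDO1 -0.042 to 0.18, AKR1C1 -0.21 to 0.35 and ABCC2 -0.20 to 0.063 in TruSeq. In PLATE-seq it gave ME1 -0.00028 to 1.15 in clone 1, -0.74 to 0.73 in clone 2 and -0.85 to 0.92 in clone 3. UGDH ran from -0.55 to 0.72, -0.95 to 0.23 and, with siRNA, -0.65 to 1.55, SOD1 from -0.043 to 0.11 and -0.32 to 0.14, and PRDX6 in clone 2 from -0.092 to 0.94. Depth limits PLATE-seq: HMOX1, GCLC and KEAP1 had few counts there.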
